A study of Mus musculus with 27 samples.

Results

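Glutathione S-transferases were examined as 10 genes of the mouse liver, Gstm1, Gstm2, Gstm3, Gstm4, Gstm6, Gsta2, Gsta3, Gsta4, Gstp1 and Gstt1. They were picked by symbol from a table of 21823 genes, and all 10 passed the filter on low values that 12952 genes passed. The table holds FPKM, which is the number of sequenced fragments scaled to transcript length and to library size, so levels can be compared between genes, except that reads shared with near copies were left out, which lowers some genes more than others. RNA came from liver zones 1, 2 and 3, which were cut from cryosections by laser microdissection and sequenced after ribosomal RNA depletion. All mice were wild-type C57BL/6 females by their labels (C57BL/6N adults by the methods), with no transgene and no drug treatment named for these samples. They were non-pregnant (NP) or pregnant at 8 or 16 days post-coitum (dpc8 and dpc16), with 3 libraries for each stage and zone, thus 9 groups and 27 libraries.

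Glutathione S-transferases join the tripeptide glutathione to reactive, electron-poor compounds, which makes these more soluble and ready for export from the cell. The cytosolic enzymes work as dimers and are grouped in classes, of which mu (Gstm genes), alpha (Gsta), pi (Gstp) and theta (Gstt) are represented here. In the liver lobule, zone 1 lies around the portal vein, zone 3 around the central vein and zone 2 between them, and much of the oxidation and conjugation of foreign compounds is carried out around the central vein. The transcription factor NRF2 and the nuclear receptors CAR and PXR are known inducers of many of these genes.

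The zone labels and the markers went together. Summed over 10 pericentral genes such as Glul and Cyp2e1, FPKM lay between 243 and 466 in zone 1 libraries and between 6847 and 18325 in zone 3 libraries. The estimated depth was 7.53 to 33.4 M reads per library. The FPKM sum of a library was 499866 to 704327 in NP and dpc8 mice and 523854 to 988500 in dpc16 mice. In 6 libraries, 4 Y-linked genes summed to 7.92 to 23.2 FPKM although all mice were labelled female, against at most 2.97 FPKM in the other 21 libraries. These 6 (NP zone 1 number 1, NP zone 3 number 2, dpc8 zone 1 number 1, dpc8 zone 2 number 2, dpc16 zone 2 number 3 and dpc16 zone 3 number 3) also had the highest mean log2(FPKM + 1) of connective tissue and smooth muscle markers, 5.23 to 6.43 against 1.76 to 4.45. They are called the 6 Y-positive libraries here, and the number of members that pass the test without them is given beside the counts of members called. In dissected tissue, fewer cells of a type and less RNA per cell cannot be told apart. The paper describes the microdissection data as 3 independent experiments and says of its experiments in general that different mice were used. The labels do not tie a library number to a mouse.

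Gstm1, a mu class enzyme that is abundant in mouse liver, and Gsta3, an alpha class enzyme that detoxifies the epoxide of aflatoxin in mice, had the highest levels of the 10 genes. Their median levels over the 27 libraries were 1247 and 1012 FPKM, and both together made up 68.9% to 84.4% of the summed FPKM of the 10 genes in every library. Gstt1, the theta class enzyme that acts on small halogenated compounds, came next among the 10 with a median of 181 FPKM. Some transferases outside the 10 were as abundant, among them Mgst1 with a median of 2658 FPKM. The medians of the other 7 genes lay between 22.3 FPKM (Gstm4) and 69.6 FPKM (Gstp1). The summed FPKM of the 10 genes was lowest in dpc16 zone 1, with 1005, 609 and 1594 in libraries 1, 2 and 3. It was highest in dpc8 zone 3, with 4077, 5132 and 7110. In NP and dpc16 mice all 3 zone 3 libraries lay above the zone 1 libraries of the same stage, and in dpc8 mice the zone 1 library number 3 (4468) lay above the zone 3 library number 1. The mu class share of this sum was 45.3% ± 6.43 (SD, n = 3) in NP zone 1 and 42.6% ± 5.19 in dpc16 zone 1, and 53.3% ± 7.67 in NP zone 3 and 62.9% ± 1.95 in dpc16 zone 3. The share of Gstp1 was 3.09% ± 0.542 in NP zone 1 and 8.57% ± 4.09 in dpc16 zone 1.

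**Figure D1:**
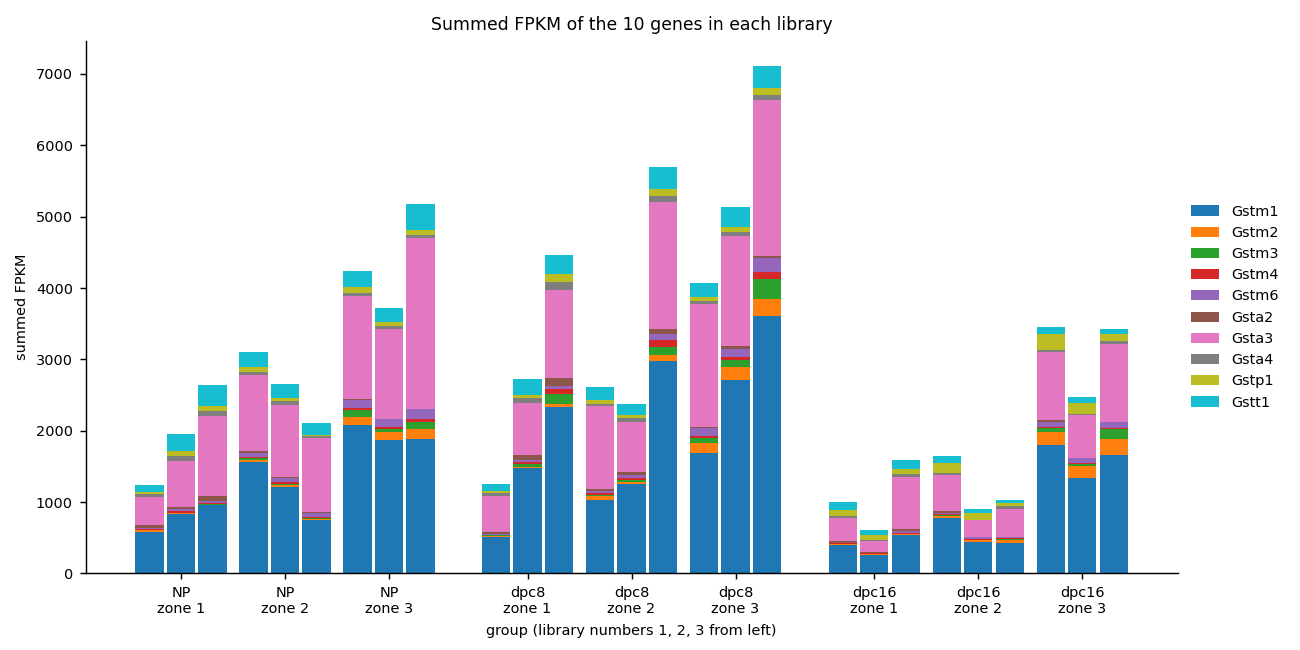
Summed FPKM of the 10 genes in each library, stacked by gene, with library numbers 1, 2 and 3 from left in each of the 9 groups of stage and zone. Gstm1 and Gsta3 fill most of each bar, the bars of dpc16 zones 1 and 2 reach 609 to 1653 FPKM, and in each dpc8 zone the bar of library number 3 is the tallest.

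The 5 mu class genes lie in a cluster on the minus strand of chromosome 3 (GRCm38), from Gstm6 at chr3:107938847-107943749 through Gstm3 (107963696-107969283), Gstm2 (107981702-107986453) and Gstm1 (108012255-108017973) to Gstm4 (108040408-108044894). All are protein-coding. Their coding sequences share 79.1% to 89.5% of aligned bases in the 10 pairs, against 47.2% to 54.3% between members of different classes. Reads were 86 bases long and those that mapped to more than 1 place were left out, so how much of a transcript is unique bears on its value. The opening 86 coding bases, taken from GENCODE vM21 transcripts, show how far the mu genes can be told apart over a read length, with capitals at each base that differs from Gstm1.

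Gstm1: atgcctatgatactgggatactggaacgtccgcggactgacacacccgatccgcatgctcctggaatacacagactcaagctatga

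Gstm2: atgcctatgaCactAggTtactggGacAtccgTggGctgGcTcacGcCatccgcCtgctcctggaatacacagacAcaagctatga

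Gstm3: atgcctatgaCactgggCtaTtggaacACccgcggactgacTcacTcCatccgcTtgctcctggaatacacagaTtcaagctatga

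Gstm4: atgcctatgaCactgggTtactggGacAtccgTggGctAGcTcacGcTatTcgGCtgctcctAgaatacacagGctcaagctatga

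Gstm6: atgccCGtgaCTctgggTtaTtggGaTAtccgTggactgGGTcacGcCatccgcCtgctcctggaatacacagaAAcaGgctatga

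Gstm3 differed from Gstm1 at 10 of these 86 bases, Gstm2 at 13, Gstm4 at 16 and Gstm6 at 19. Over whole transcripts, 18.2% of the 86-base windows of Gstm3 and 12.2% of those of Gstm1 also occur in a transcript of another gene, among them each other. The share was 3.75% in Gstm6, 2.04% in Gstm2 and 0 in Gstm4. The levels of Gstm1 and Gstm3 are therefore less certain than those of the other mu genes, and the part of shared reads in the results was not tested.

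The portal and central ends of the lobule were set against each other to ask where the genes are expressed. Of the 5 mu genes 4, Gstm1, Gstm2, Gstm3 and Gstm6, were lower around the portal vein than around the central vein over the mean of stages, by 1.48 to 3.72 on the log2 scale. Gsta3 was also lower, Gsta2 was higher, and Gstm4, Gsta4, Gstp1 and Gstt1 did not pass the test. In all, 6 of 10 members were called in limma at an adjusted p under 0.05 against 5.59% of all genes tested. Lower in zone 1 were 5 members (2.89% of all genes) and higher was 1 (2.7%). In the same comparison 4 of 6 cholangiocyte markers were higher in zone 1 (summed FPKM 40.8 to 166, against 0.0884 to 91.6 in zone 3), 1 of 6 Kupffer cell markers was higher, and 2 of 9 connective tissue and smooth muscle markers were lower, and their part in the result was not tested. Without the 6 Y-positive libraries, 6 members were also called. A replicate block, which pairs same-numbered libraries within each of the 3 stages, gave 7, the added gene being Gstm4 (limma, adjusted p = 0.00778). The numbers were taken to mark pairs at dpc16 only.

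Gstm2, a mu class enzyme, was called between zones 1 and 3 at each of the 3 stages. In NP mice it was at 19.4, 8.79 and 7.66 FPKM in zone 1, 30.2, 27.7 and 22.4 in zone 2, and 112, 102 and 146 in zone 3. In dpc8 mice the values were 17.2, 20.4 and 40.6 in zone 1, 48.9, 39.6 and 78.7 in zone 2, and 136, 183 and 242 in zone 3. In dpc16 mice they were 7.89, 7.07 and 12.4 in zone 1, 30.7, 27.1 and 38.5 in zone 2, and 188, 163 and 219 in zone 3. At each stage every zone 2 library lay between the zone 1 and the zone 3 libraries, except that at dpc8 the zone 2 library number 2 was below the zone 1 library number 3. On log2(FPKM + 1), zone 1 was lower than zone 3 by a fold change of -3.32 ± 0.34 (SE) in NP mice (limma, adjusted p = 1.15e-06), -2.85 ± 0.34 at dpc8 (1.26e-05) and -4.26 ± 0.34 at dpc16 (2.1e-08). Gstm2 was also called between zones 1 and 2 over the mean of stages (-1.35 ± 0.20, limma, adjusted p = 0.000318, 1 of 10 members, against 0.919% of all genes in either direction, 0.409% lower and 0.51% higher). With the block 2 members passed here, and without the Y-positive libraries 1 did.

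Gstm6, also of the mu class, was likewise called at each of the 3 stages. Its zone 1 values were 20.3, 26.7 and 30.2 FPKM in NP mice, 14.1, 32.8 and 50.8 at dpc8, and 11.3, 9.99 and 22.1 at dpc16. Zone 3 values were 103, 109 and 129 in NP mice, 119.5, 111 and 192 at dpc8, and 70.7, 66.6 and 76.4 at dpc16. No zone 1 library reached a zone 3 library of any stage. The fold change was -2.11 ± 0.37 in NP mice (limma, adjusted p = 0.00151), -2.21 ± 0.37 at dpc8 (0.000943) and -2.30 ± 0.37 at dpc16 (0.000451). With only the dpc8 zone 1 and zone 3 libraries in the fit, the dpc8 call was lost.

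Gstm3, a mu class enzyme close in sequence to Gstm1, covered the widest range, with a highest value 598-fold above its lowest. In NP mice it was at 5.40, 3.44 and 6.59 FPKM in zone 1 and 105, 53.4 and 98.5 in zone 3. In dpc16 mice it was at 0.605, 0.478 and 0.925 in zone 1 and 54.9, 30.6 and 136 in zone 3. In both stages the zones did not overlap, and the dpc16 zone 1 values stood on about 7, 4 and 12 reads. In dpc8 mice, zone 1 held 3.49, 34.7 and 140.2 FPKM and zone 3 held 72.4, 91.0 and 286. Here library number 3 of zone 1 was above library numbers 1 and 2 of zone 3. The fold change of zone 1 against zone 3 was -3.79 ± 0.90 in NP mice (limma, adjusted p = 0.0329), -2.14 ± 0.90 at dpc8 (0.322) and -5.23 ± 0.90 at dpc16 (0.00118). The NP call was lost when any of the 6 NP zone 1 and zone 3 libraries was left out, with an adjusted p of up to 0.147, and the dpc16 call was kept without each of its 6 libraries.

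Gstm1 rose from zone 1 to zone 3 by a smaller factor at a far higher level. It was at 585, 837 and 954 FPKM in NP zone 1, 1556, 1207 and 747 in zone 2, and 2079, 1875 and 1884 in zone 3. In dpc16 mice the values were 402, 265 and 543 in zone 1, 779.7, 444 and 432 in zone 2, and 1796, 1337 and 1666 in zone 3. In both stages the zone 3 libraries lay above all others. At dpc8, with 512, 1475 and 2331 FPKM in zone 1 and 1693, 2712 and 3603 in zone 3, the zones overlapped. The fold change was -1.32 ± 0.47 in NP mice (limma, adjusted p = 0.306), -1.08 ± 0.47 at dpc8 (0.344) and -2.03 ± 0.47 at dpc16 (0.0207). The dpc16 call was lost without zone 1 number 1 or 2 or zone 3 number 1 or 3, with an adjusted p of up to 0.151. The block, under which same-numbered dpc16 libraries are paired, gave an adjusted p of 0.000833.

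Gstm4 was the mu gene that did not pass over the mean of stages. Its zone 1 values were 9.23, 23.4 and 20.7 FPKM in NP mice, 6.67, 25.1 and 68.7 at dpc8, and 11.5, 7.08 and 14.8 at dpc16, while zone 3 held 28.4, 23.7 and 41.4, 23.7, 50.7 and 96.1, and 18.03, 16.3 and 20.1. The NP and dpc16 zones did not overlap, and the dpc8 zones did. Over the mean of stages the fold change was -0.86 ± 0.35 (limma, adjusted p = 0.207). The gene order along chromosome 3 was thus not the order of the zone differences, with fold changes over the mean of stages of -2.21 for Gstm6, -3.72 for Gstm3, -3.48 for Gstm2, -1.48 for Gstm1 and -0.86 for Gstm4.

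**Figure D2:**
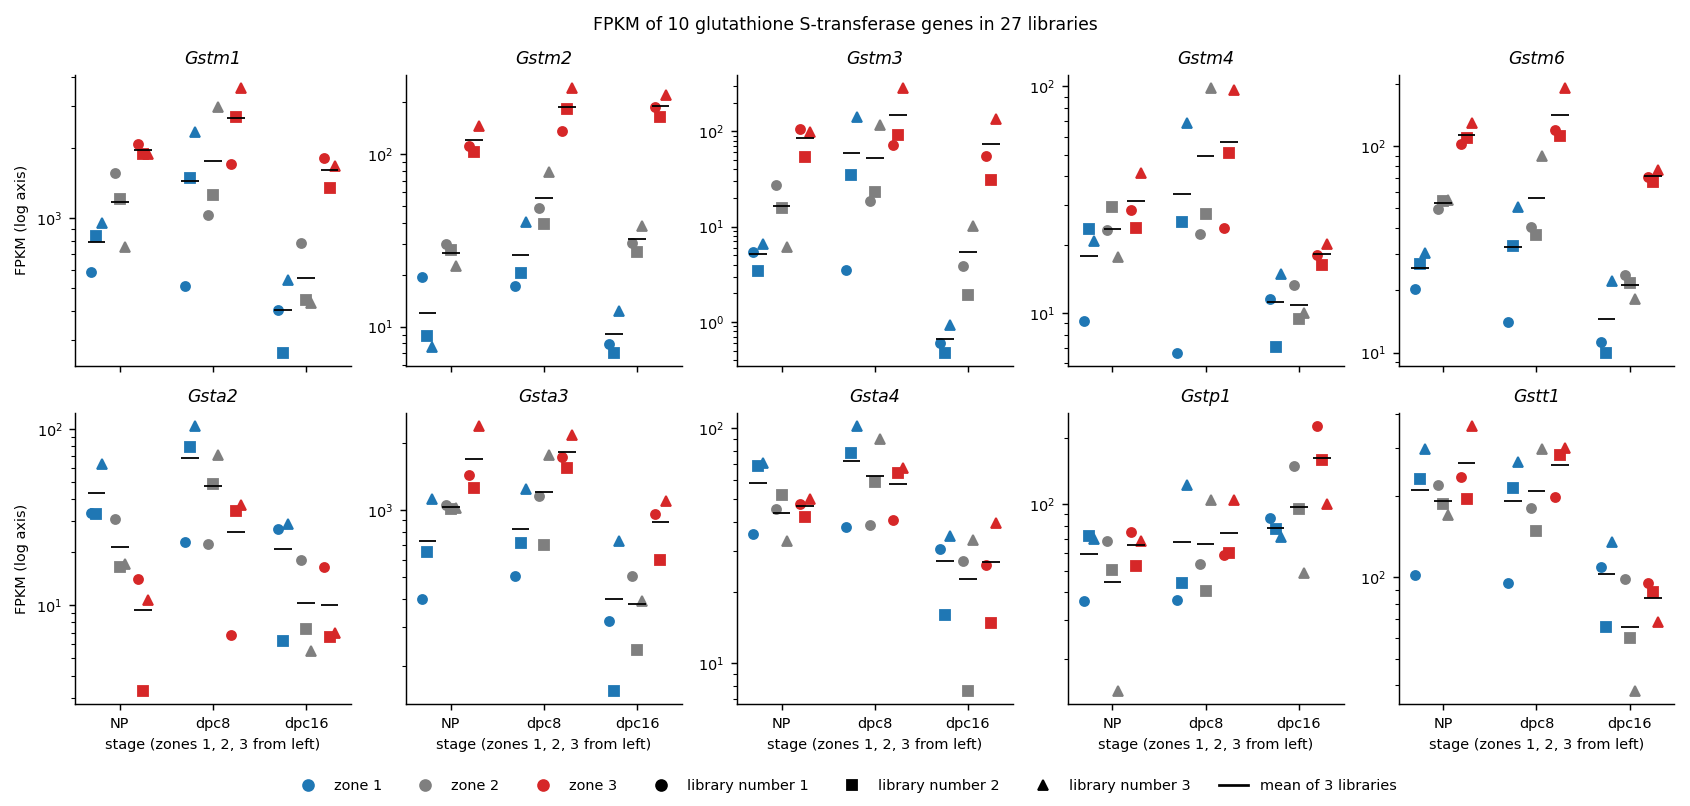
FPKM of the 10 genes on log axes in 27 libraries, by stage and zone, with symbols for library numbers 1, 2 and 3 and a black line at the mean of each group of 3. Zone 3 points of Gstm1, Gstm2, Gstm3 and Gstm6 lie above the zone 1 points in NP and dpc16 mice, Gsta2 falls from zone 1 to zone 3, and the triangles of library number 3 lie highest in every dpc8 group.

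Counted by stage, 3 of 10 members were called between zones 1 and 3 in NP mice (Gstm2, Gstm3 and Gstm6, against 1.34% of all genes), 2 at dpc8 (Gstm2 and Gstm6, 1.61%) and 4 at dpc16 (Gstm1, Gstm2, Gstm3 and Gstm6, 1.55%). All were lower in zone 1, against 0.811%, 0.926% and 0.772% of all genes lower and 0.525%, 0.679% and 0.78% higher. Without the Y-positive libraries the counts were also 3, 2 and 4. With the block, 5 members were called at dpc16, the added gene being Gsta3 (adjusted p = 0.0341). Between zones 2 and 3 over the mean of stages, 3 members were called, all lower in zone 2 (against 1.88% of all genes in either direction, 1.07% lower and 0.811% higher). They were Gstm2 at -2.13 ± 0.20 (limma, adjusted p = 1.83e-07), Gstm3 at -2.57 ± 0.52 (0.00674) and Gstm6 at -1.39 ± 0.21 (0.000298). With the block 5 members passed between these zones, and without the Y-positive libraries 3 did.

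Gsta2, an alpha class enzyme that reduces organic peroxides and responds to inducers, ran the other way across the lobule. In NP mice it was at 33.1, 33.1 and 62.8 FPKM in zone 1, 30.6, 16.5 and 17.2 in zone 2, and 14.1, 3.27 and 10.7 in zone 3. These NP zones did not overlap in any pairing. At dpc8 the values were 22.8, 78.9 and 103 in zone 1 and 6.83, 34.3 and 37.1 in zone 3, and at dpc16 they were 27.1, 6.31 and 29.0 in zone 1 and 16.5, 6.64 and 6.98 in zone 3. Here the zones overlapped. Zone means fell from 1 to 2 to 3 at all 3 stages. Over the mean of stages zone 1 was higher by 1.49 ± 0.40 (limma, adjusted p = 0.027), and no single stage passed the test (2.21 ± 0.69 in NP mice, adjusted p = 0.185). Leaving out 1 library ended this call in 8 of 18 fits (NP zone 1 number 3, NP zone 3 number 2, dpc8 zone 1 number 2 or 3, dpc8 zone 3 number 1, dpc16 zone 1 number 1 or 3 and dpc16 zone 3 number 2), with an adjusted p of up to 0.0659. Gsta2 (chr9:78331018-78355788, minus strand) shares 40.1% of its 86-base windows with Gsta1, Gm3776 or Gm10639, and its coding sequence is 97.5% identical to that of Gsta1, which was listed at no more than 17.7 FPKM in any library but shares 84.3% of its own windows, so its level is uncertain too.

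Gsta3 (chr1:21240589-21265661, plus strand) shares no 86-base window with another gene. It was at 399, 648 and 1124 FPKM in NP zone 1 and 1447, 1259.8 and 2385 in zone 3, which did not overlap. At dpc8 it was at 508, 715 and 1243 in zone 1 and 1727, 1543 and 2182 in zone 3, again without overlap. At dpc16 zone 1 held 319, 154 and 730.4 and zone 3 held 957, 596 and 1096, and zone 1 number 3 was above zone 3 number 2. The zone 1 to zone 3 fold changes of -1.30, -1.23 and -1.37 at the 3 stages, each ± 0.49, did not pass the test alone, whereas their mean did (-1.30 ± 0.28, limma, adjusted p = 0.00506). Zone 1 was without overlap below zone 3 for 6 members in NP mice, 3 at dpc8 and 6 at dpc16, against 6.05%, 10.5% and 6.39% of all genes.

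Gsta4, the alpha class enzyme for the lipid peroxidation product 4-hydroxynonenal, had no zone difference that passed the test. Its group means lay between 43.4 and 58.6 FPKM in NP mice, 57.6 and 72.7 at dpc8, and 22.7 and 27.1 at dpc16. The fold change of zone 1 against zone 3 over the mean of stages was 0.19 ± 0.27 for Gsta4 (limma, adjusted p = 0.837) and -0.23 ± 0.24 for Gstt1 (0.754). The change with pregnancy was compared between zones 1 and 3, and no member was called at dpc8 (background 0%) or at dpc16 (0.054%, with 0.0154% higher and 0.0386% lower) in limma. At an unadjusted p under 0.05 there were 306 and 409 genes, none of them a member. For Gstm3 the dpc16 change differed by -1.44 ± 1.28 (limma, adjusted p = 0.993).

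**Figure D3:**
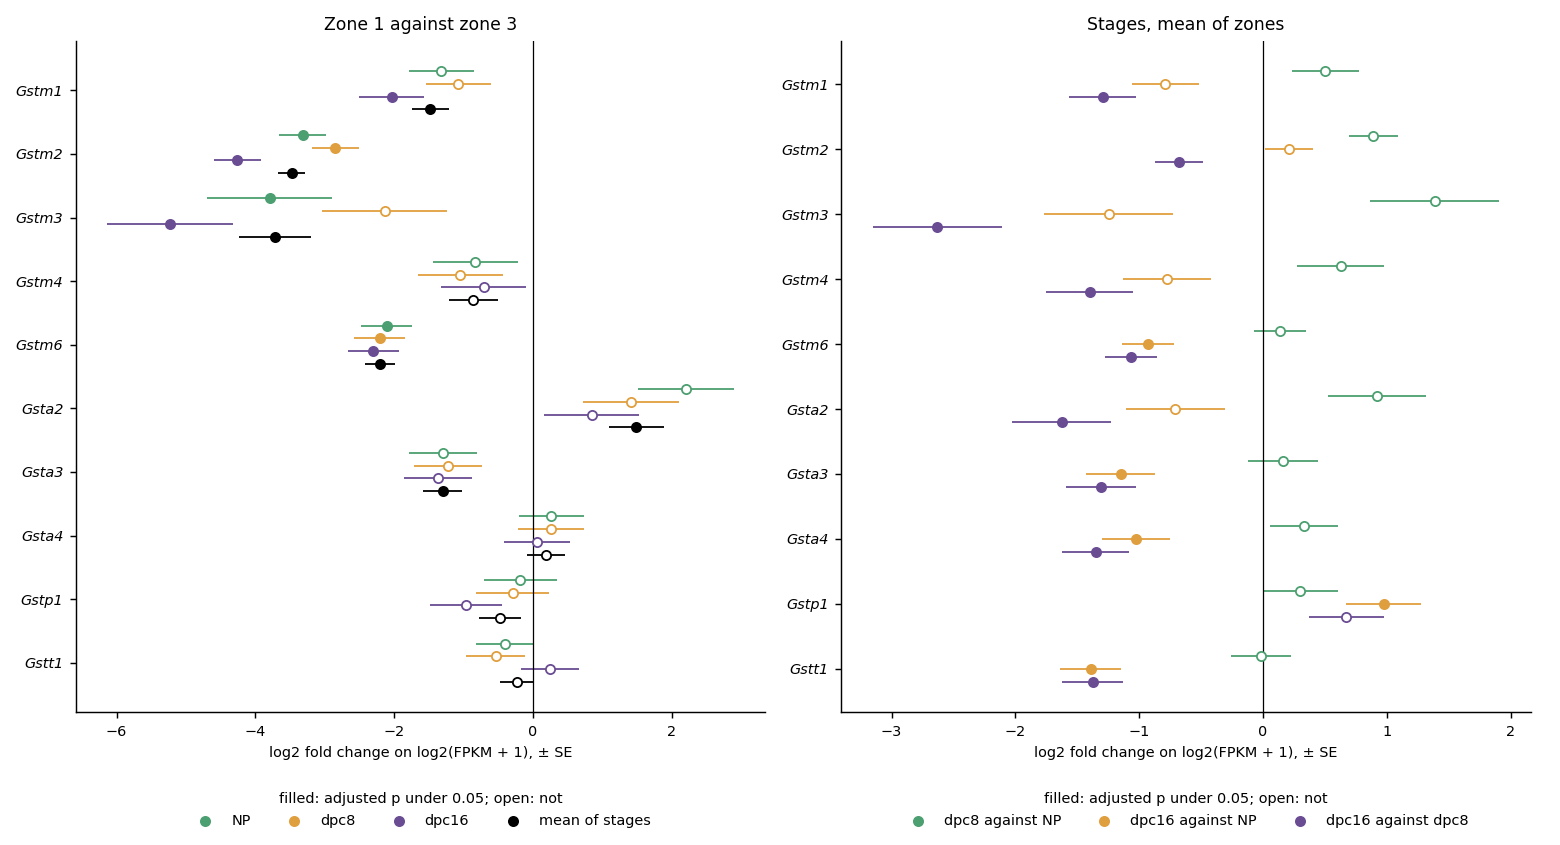
Log2 fold changes with standard errors from limma on log2(FPKM + 1), for zone 1 against zone 3 at each stage and over the mean of stages (left) and for the stages over the mean of zones (right), with filled points at an adjusted p under 0.05. Gstm2 and Gstm6 are filled at all stages on the left, and on the right 9 genes are filled and below 0 for dpc16 against dpc8, with Gstp1 above 0 and open.

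The pregnant stages were compared with NP mice to ask how the genes change with gestation. At dpc8 no member passed the test in limma in any zone or over the mean of zones (backgrounds 0.0309%, 0.00772% and 0.0154% in zones 1, 2 and 3 and 0.108% for the mean, with 0.0772% higher and 0.0309% lower), and 3 members and 792 of the 12952 genes had an unadjusted p under 0.05 over the mean of zones. Gstm2 had the smallest p, at 0.89 ± 0.20 above NP (limma, adjusted p = 0.0973). Array weights, a connective tissue covariate, dropping the Y-positive libraries and the block each brought it past the threshold (block adjusted p = 0.0475), and it was 0.61 (adjusted p = 0.408) without the 3 dpc8 libraries numbered 3. In zone 2 the 3 dpc8 values of Gstm2 lay above the 3 NP values, as for 4.29% of all genes. Gstm3 was at 1.39 ± 0.52 (adjusted p = 0.613), Gsta2 at 0.92 ± 0.40 (0.734) and Gstm1 at 0.50 ± 0.27 (0.877).

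Members deviated together within libraries. In each of the 3 zones at dpc8, all 10 members lay above their group mean in library number 3. The median deviation was 0.82 log2 units in zone 1, 0.74 in zone 2 and 0.49 in zone 3. Of all genes tested, 45.9%, 46.2% and 46.5% were above their group mean in these libraries. In the dpc8 libraries numbered 1, by contrast, 0, 1 and 0 members were above it in zones 1, 2 and 3. The median deviations were -0.93, -0.47 and -0.43, and 52.3%, 47.2% and 49.2% of all genes were above their group mean. At the other stages, 0 of 10 members were above their group mean in NP zone 3 number 2 (median -0.32) and dpc16 zone 1 number 2 (-0.54). In NP zone 2 number 3, 1 of 10 was above it (-0.30). The count was 2 of 10 in NP zone 1 number 1 (-0.51), dpc16 zone 2 number 2 (-0.24) and dpc16 zone 3 number 2 (-0.23). It was 9 of 10 in NP zone 1 number 3 (0.32), NP zone 2 number 1 (0.19), NP zone 3 number 3 (0.28) and dpc16 zone 1 number 3 (0.44). Of all genes tested, 44.9% to 53.5% were above their group mean in these libraries. Gstm3 deviated most in the dpc8 libraries numbered 3, by 2.32, 1.62 and 1.20, followed by Gstm4 at 1.53, 1.31 and 0.96. Among 14 other transferases, 12, 13 and 10 were above their group mean in these dpc8 libraries. So were 11, 10 and 9 of 12 targets of CAR and PXR and 6, 5 and 3 of 6 hepatocyte markers. In zones 1 and 2 of dpc8, library number 1 or 2 was Y-positive, and in zone 3 none was. The part of the tissue content of these libraries in the deviations was not tested.

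**Figure D4:**
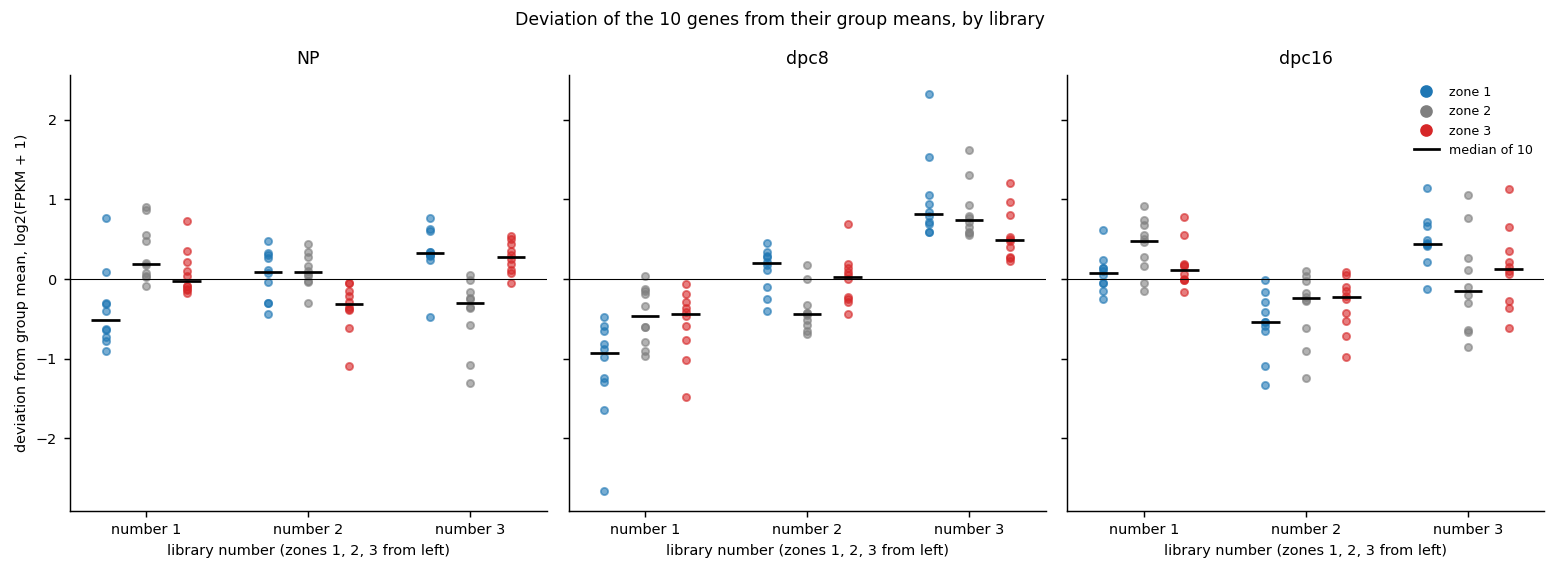
Deviation of each of the 10 genes from its group mean on log2(FPKM + 1), by stage, library number and zone, with a black line at the median of the 10. At dpc8 all 30 points of the libraries numbered 3 lie above 0, with medians of 0.82, 0.74 and 0.49, and the medians of library number 1 are -0.93, -0.47 and -0.43.

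The dpc16 libraries were compared with the NP libraries next. Over the mean of zones, 4 members were lower than in NP mice and 1 was higher (5 of 10 called, against 11.8% of all genes, of which 6.15% lower and 5.65% higher). Without the Y-positive libraries 7 were called, 6 lower and 1 higher. The test counts same-numbered dpc16 libraries of different zones as independent, although they deviated together, so its SEs and adjusted p-values may be too small. The median fold change was -0.86 over the 10 members and -0.01 over all genes tested. Cell markers moved in the same comparison. Of 6 hepatocyte markers tested 4 were called higher and 1 lower at dpc16 (median 0.80), and their summed FPKM per library was 45541 to 116130 in NP mice and 58688 to 257120 at dpc16. Of 12 periportal hepatocyte markers 2 were higher and 6 lower (median -0.80), and of 10 pericentral markers 1 was higher and 2 were lower (median -0.40). Of 6 Kupffer cell markers 0 were higher and 3 lower (median -0.69), with a summed FPKM of 64.0 to 299.6 in NP mice and 24.5 to 161 at dpc16. Their part in the changes of the members was not tested. The dpc16 libraries lay below those of NP mice without overlap for Gstm1, Gstm3, Gsta2 and Gsta4 in zone 1 (8.01% of all genes), for Gstm4, Gstm6, Gsta3 and Gstt1 in zone 2 (9.59%), and for Gstm1, Gstm4, Gstm6, Gsta3, Gsta4 and Gstt1 in zone 3 (8.87%). They lay above them for Gstm2 and Gstp1 in zone 3 (7.84%), and in either direction this held for 17.4%, 17.4% and 16.7% of all genes in zones 1, 2 and 3.

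Gstt1 (chr10:75783813-75798584, minus strand), which shares no 86-base window with another gene, had the smallest adjusted p of the members over the mean of zones. In zone 1 it was at 102, 231 and 298 FPKM in NP mice and 109, 65.6 and 135 at dpc16, which overlap. In zone 2 it was at 218, 187 and 169.6 in NP mice and 98.4, 59.8 and 38.1 at dpc16, and in zone 3 at 234, 195 and 361 and at 95.2, 88.7 and 68.4. In zones 2 and 3 the stages did not overlap. The fold change over the mean of zones was -1.39 ± 0.24 (limma, adjusted p = 0.000489). By zone it was -0.95 ± 0.42 in zone 1 (limma, adjusted p = 0.399), -1.63 ± 0.42 in zone 2 (0.0387) and -1.60 ± 0.42 in zone 3 (0.0639). Gstt1 was called in zone 2 (1 of 10, against 2.66% of all genes in zone 2, with 1.64% lower and 1.02% higher). No member was called in zone 1 (1.37%, with 0.371% lower and 0.996% higher) or zone 3 (1.32%, with 0.571% lower and 0.749% higher). This zone 2 call was lost without any of NP zone 2 numbers 1, 2 and 3 and dpc16 zone 2 numbers 2 and 3, with an adjusted p of up to 0.162. In zone 2, 3 members passed with the block and 1 without the Y-positive libraries. In zones 1 and 3, Gstt1 was called in each without the Y-positive libraries.

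Gsta3 was at 509, 235 and 391 FPKM in dpc16 zone 2 against 1059.9, 1012 and 1028 in NP zone 2, and its zone 3 values of both stages, given above, did not overlap either. Over the mean of zones it fell by 1.15 on the log2 scale (± 0.28, limma, adjusted p = 0.00859). Gsta4 was at 30.7, 16.1 and 34.6 FPKM in dpc16 zone 1 and 35.5, 69.0 and 71.2 in NP zone 1. In zone 3 it was at 26.1, 14.7 and 39.5 at dpc16 and 47.5, 41.9 and 50.1 in NP mice. The stages did not overlap in either zone, and the fold change was -1.02 ± 0.27 (limma, adjusted p = 0.0157). For Gstm6, with the values given above, it was -0.93 ± 0.21 (limma, adjusted p = 0.00505). Each of these 3 calls was kept in all 18 fits that left out 1 library. Gstm1 (-0.79 ± 0.27, adjusted p = 0.0612), Gstm3 (-1.24 ± 0.52, 0.137), Gstm4 (-0.78 ± 0.35, 0.179) and Gsta2 (-0.71 ± 0.40, 0.301) did not pass. Gstm2 was at 0.21 ± 0.20 (0.587), with zone 3 values at dpc16 above those in NP mice without overlap.

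Gstp1 (chr19:4035407-4037985, minus strand), the pi class enzyme, was called higher at dpc16 than in NP mice. In zone 3 it was at 226, 159 and 100.2 FPKM at dpc16 and 75.2, 52.6 and 68.2 in NP mice, which did not overlap. In zone 2 it was at 148, 95.2 and 48.7 at dpc16 and 68.1, 50.5 and 14.3 in NP mice, and in zone 1 at 86.3, 77.1 and 71.3 and at 36.7, 72.0 and 69.6. In these zones the stages overlapped. Over the mean of zones it rose by 0.97 ± 0.30 (limma, adjusted p = 0.0383). It did not pass with no filter on low values (adjusted p = 0.0561), nor in 10 of 18 fits without 1 library (NP zone 1 number 1, zone 2 number 3 or zone 3 number 2 or 3, and dpc16 zone 1, 2 or 3 number 1 or 2), with an adjusted p of up to 0.0824. At dpc16 the zone 1 values lay below those of zone 3 (-0.97 ± 0.52, limma, adjusted p = 0.74). Of the 86-base windows of Gstp1, 55.6% also occur in Gstp2 or Gstp-ps, and the coding sequence is 98.1% identical to that of Gstp2, which was listed at no more than 4.72 FPKM in any library but shares 66.2% of its own windows.

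Gsta3 and Gstp1, which moved in opposite directions by dpc16, are shown with the sequence before their RefSeq start sites (GRCm38.p6). Capitals mark matches on the strand of the gene to the core of the antioxidant response element, to which NRF2 binds, in the forms TGACNNNGC (Gsta3, 121 to 113 bases before the start) and TGAGNNNGC (Gstp1, 74 to 66 bases before the start). The windows are chr1:21240335-21240584 on the plus strand for Gsta3 (250 bases) and chr19:4037978-4038162 on the minus strand for Gstp1, of which the 185 bases from 250 to 66 before the start are printed. By the gene span given above, most of the Gstp1 match lies inside the annotated gene. Its distance thus holds for the RefSeq start only.

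Gsta3: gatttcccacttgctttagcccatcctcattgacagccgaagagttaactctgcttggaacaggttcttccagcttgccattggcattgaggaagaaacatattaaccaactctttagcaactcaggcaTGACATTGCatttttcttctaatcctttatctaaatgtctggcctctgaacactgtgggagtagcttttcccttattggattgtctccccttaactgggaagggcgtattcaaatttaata

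Gstp1: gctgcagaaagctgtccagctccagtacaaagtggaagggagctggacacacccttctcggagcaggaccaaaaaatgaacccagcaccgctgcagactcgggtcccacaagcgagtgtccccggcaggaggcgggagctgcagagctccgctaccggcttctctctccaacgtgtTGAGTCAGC

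Promoters of 9 members were matched in RefSeq, in 13 windows of 250 bases, and both strands were searched. TGACNNNGC occurred in Gsta3 only, and TGAGNNNGC in Gstp1 and Gstt1 (89 to 81 bases before the start). The Gstt1 window lies inside the span annotated for the gene. In Gstp1 a further TGAGNNNGC match lies on the opposite strand, 9 to 1 bases before the start, outside the stretch printed above. Of 32851 promoters of the same length, 10.2% hold TGACNNNGC and 14.4% hold TGAGNNNGC. The letters CTTTGAT, bound by the TCF/LEF factors of the Wnt pathway, were in no member's window and in 3.21% of all promoters.

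The dpc16 libraries were also compared with those of dpc8. Over the mean of zones, 9 of 10 members were lower at dpc16, by 0.68 to 2.63 on the log2 scale, against 11.1% of all genes called in either direction, 5.69% lower and 5.37% higher. Gstm3 fell most (-2.63 ± 0.52, limma, adjusted p = 0.00179), followed by Gsta2 (-1.63 ± 0.40, 0.00955), Gstm4 (-1.40 ± 0.35, 0.0116) and Gstt1 (-1.38 ± 0.24, 0.000624). Gsta4 fell by 1.35, Gsta3 by 1.31, Gstm1 by 1.29 and Gstm6 by 1.07, with adjusted p-values from 0.00178 to 0.00357. Gstm2 fell by 0.68 (± 0.20, adjusted p = 0.0261), which did not pass in 7 of 18 fits without 1 library (dpc8 zone 1, 2 or 3 number 3, dpc16 zone 1 number 1 or 2, dpc16 zone 2 number 2 and dpc16 zone 3 number 2), with an adjusted p of up to 0.0662. Gstp1 was at 0.67 ± 0.30 (adjusted p = 0.173). In the same comparison, 4 of 6 hepatocyte markers were higher and 0 lower (median 1.12), 2 of 12 periportal markers higher and 5 lower (median -0.82), and 3 of 6 Kupffer cell markers lower (median -0.75), and their part in the result was not tested. Without the 3 dpc8 libraries numbered 3, Gstm2, Gstm4, Gsta2 and Gsta3 did not pass (adjusted p = 0.244, 0.104, 0.108 and 0.053), and Gstm1, Gstm3, Gstm6, Gsta4 and Gstt1 did. Without the Y-positive libraries 9 were called as well. The comparisons with NP and with dpc8 share the dpc16 libraries. Same-numbered libraries of different zones deviated together at dpc16, and the members did so by number at dpc8. The test counts these libraries as independent, so its SEs and adjusted p-values may be too small.

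The levels of the members moved together to different degrees. As a description over the 27 libraries, which share stage, zone and library composition, Pearson's r of log2(FPKM + 1) was 0.53 to 0.94 in the 10 pairs of mu genes (median 0.86) and -0.17 to 0.34 in the 9 pairs with Gstp1. Measured as deviations from the group means, r was above 0 in all 45 pairs (0.20 to 0.92, median 0.67). Outside the family, the levels of Gstm6 were most like those of Cyp1a2 (r = 0.97), a pericentral cytochrome P450 that was also most like Gstm3 (0.92) and ranked second for Gstm1 (0.92, after Ces2e at 0.93). The gene most like Gstm4 was Cyp2c29 (0.89), for Gsta3 it was Sord (0.94), for Gsta4 Me1 (0.90) and for Gstt1 Hebp1 (0.96). For Gsta2 it was Pdzk1ip1 (0.81), followed by Cyp2b10 (0.79), and for Gstp1 it was Tmem184a (0.82).

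Of 17 other transferase genes 14 were tested. Between zones 1 and 3 over the mean of stages 1 of 14 was called (5.59% of all genes), the membrane-bound Mgst1, which was lower in zone 1 by 0.89 (SE 0.25, limma, adjusted p = 0.0357). At dpc16 against NP, Mgst3 (-1.59 ± 0.22, limma, adjusted p = 4.04e-05) and the mu class gene Gstm7 (-0.77 ± 0.21, 0.02) were lower, 2 of 14 against 11.8% of all genes. At dpc16 against dpc8, Mgst3 (-1.89 ± 0.22), Gsta1 (-1.76 ± 0.45) and Mgst1 (-0.90 ± 0.25) were lower, 3 of 14 against 11.1%. Gsta1, with its shared windows, was at 14.6, 17.7 and 4.34 FPKM in the dpc8 libraries numbered 3 of zones 1, 2 and 3 and at no more than 5.02 FPKM in the other dpc8 libraries, and its call was not tested without them. The medians over the 14 genes were -0.17, -0.17 and -0.13, against -0.86 and -1.33 over the 10 members in the stage comparisons and 0.04, -0.01 and -0.01 over all genes.

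Genes that make, break down, use and export glutathione were counted likewise, against 11.8% of all genes called at dpc16 against NP (6.15% lower and 5.65% higher) and 5.59% between zones 1 and 3. Of 17 genes of synthesis and breakdown tested, 0 were higher and 3 lower at dpc16 than in NP mice, namely Cth, which makes cysteine (-1.67 ± 0.27, limma, adjusted p = 0.000261), Gclm, the modifier subunit of the rate-limiting ligase (-0.53 ± 0.16, 0.0292), and the gamma-glutamyl transferase gene Ggt6 (-2.11 ± 0.24, 2.29e-06). Between zones, Gclm was lower (-0.55 ± 0.16, adjusted p = 0.0387) and Gss, glutathione synthetase, higher in zone 1 (0.49 ± 0.14, 0.0419). Of 14 users of glutathione, 2 were higher and 2 lower at dpc16 than in NP mice. The secreted peroxidase gene Gpx3 rose by 3.61 (± 0.34, limma, adjusted p = 1.69e-07), from group means of 1.69 to 11.2 FPKM to 27.8 to 92.1. Gpx1, the cytosolic peroxidase, fell by 1.41 (± 0.18, adjusted p = 1.43e-05), from group means of 2205 to 2336 FPKM to 733 to 999. Esd, S-formylglutathione hydrolase, was higher by 0.60 (± 0.14, adjusted p = 0.00589) and Prdx6, a peroxiredoxin, was at -0.45 ± 0.14 (0.0326). Of 6 exporters of conjugates, Abcc3 fell by 3.47 (± 0.30, adjusted p = 4.65e-08) and Abcc6 by 0.94 (± 0.24, 0.0129).

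Known inducers and their targets were set against the same shares of all genes, and against 11.1% (5.69% lower and 5.37% higher) for dpc16 against dpc8. Of 11 regulators, Ahr, the aryl hydrocarbon receptor, was lower in zone 1 than in zone 3 (-2.49 ± 0.17, limma, adjusted p = 5.81e-10), as was Nr1i3, the gene of CAR (-0.97 ± 0.24, 0.0145). Nfe2l2, the gene of NRF2, was higher at dpc16 than in NP mice by 0.35 (± 0.11, adjusted p = 0.0388), and Mafg, the gene of a small MAF partner, was lower by 0.94 (SE 0.19, adjusted p = 0.00155). Of 18 NRF2 targets outside the 10 members, 5 were lower and 1 higher at dpc16 than in NP mice, with a median of -0.13. Of 12 targets of CAR and PXR, 4 were lower and 0 higher, with a median of -0.94. These were Abcc3, which both lists hold, Cyp2b13 (-3.75 ± 0.26, limma, adjusted p = 2.38e-09), Cyp2c37 (-3.14 ± 0.34, 1.46e-06) and Cyp2b9 (-1.13 ± 0.23, 0.002). At dpc16 against dpc8, 7 of these 12 were lower, with a median of -1.69, against 6 lower and 1 higher of the 18 NRF2 targets, with a median of -0.10.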

How the data were processed

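The authors trimmed single-end reads of 86 bases with cutadapt, mapped them to mm10 (HISAT2 2.1.0), discarded reads without a unique position and obtained FPKM for protein-coding GENCODE vM22 genes from Cuffdiff (Cufflinks 2.2.1). The deposited FPKM values have no further scaling stated. No strand setting is given in the sources used here. The table gives no read counts, and depth was estimated from the steps between low FPKM values of genes with a single transcript, for which no interval is given.

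Libraries were grouped by their titles. Tests were run with limma 3.58.1 (R 4.3.3) after a log2(FPKM + 1) transform, which understates changes of low genes, for genes at 1 FPKM or more in at least 3 libraries. The model held 9 group means, and variances were moderated with the trend and robust options. P-values are two-sided, with Benjamini-Hochberg adjustment over all 12952 genes of a comparison and a threshold of 0.05. Limma was used because Cuffdiff, the study's test, works on reads. SD is over 3 libraries, and every ± after a fold change is an SE. Zone comparisons over the mean of stages, and stage comparisons over the mean of zones, are contrasts of the same fit. This fit counts all libraries of a stage as independent. In stage comparisons over the mean of zones, SEs and adjusted p-values may thus be too small where same-numbered libraries deviate together.

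The members and the lists were chosen with earlier results of these data known. Each member is named in every comparison where it matters. List genes are named at most 4 per direction, by the lowest adjusted p. The 3 genes most like a member are those with the highest Pearson's r. That result is not reported here for Gstm2. Positions and transcripts are from GENCODE vM21 and promoters from RefSeq (GRCm38.p6). The lists were those of other transferases, glutathione synthesis and breakdown, users of glutathione, export, regulators, NRF2 targets, CAR and PXR targets, and cell markers.

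Replicate numbers recur in every group. At dpc16 libraries that carry the same number in different zones had deviations that correlated above 0.1 in all 9 cases (0.263 to 0.863, median 0.358), so these were taken as paired. In NP mice 4 of 9 and at dpc8 5 of 9 were over 0.1. The procedure was tested on simulated data for dpc16 against NP in zone 1. A true log2 change of 1 was called for 26 of 100 genes and a change of 2 for 85 of 100. Of 12752 genes without a change, 7 were called. The simulated libraries varied independently, unlike the same-numbered dpc16 libraries. Alternatives were a pseudocount of 0.1, no filter, quantile normalization, array weights, only the groups compared, the replicate block, a connective tissue covariate, the 6 libraries with Y-linked FPKM left out, and each library left out.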

Additional observations from a re-analysis of the deposited data

How the results depend on the processing

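With the replicate number as a block, 5 members passed between zones 1 and 3 in NP mice (3 without it), 2 between zones 1 and 2 (1), 5 between zones 2 and 3 (3), 3 at dpc16 against NP in zone 2 (1) and 1 at dpc8 against NP over the mean of zones (0). The numbers were taken to pair the libraries at dpc16 only, but in zone comparisons the block pairs them at every stage. In stage comparisons it ties each number across the stages. Between stages, the deviations of same-numbered libraries of a zone had a median r of 0.167 (NP and dpc8), -0.035 (NP and dpc16) and -0.156 (dpc8 and dpc16). Array weights gave 2 members between zones 1 and 2, 5 between zones 2 and 3, 1 at dpc8 against NP in zone 1 and over the mean of zones, 2, 6 and 2 at dpc16 against NP in zones 1, 2 and 3, and 8 over the mean of zones. The connective tissue covariate gave 2 between zones 1 and 2, 1 at dpc8 against NP over the mean of zones, and 1, 3 and 1 at dpc16 against NP in zones 1, 2 and 3. Without the Y-positive libraries, 1 member passed at dpc8 against NP over the mean of zones and 1 each at dpc16 against NP in zones 1 and 3. Only the groups compared gave 1 between zones 1 and 3 at dpc8, 0 at dpc16 against NP in zone 2 and 8 over the mean of zones. Quantile normalization gave 2 and 1 at dpc16 against NP in zones 2 and 3, and no filter gave 0 in zone 2. Leaving out 1 library gave 1 to 2 between zones 1 and 2, 0 to 1 at dpc16 against NP in zone 2 and 0 to 1 at dpc8 against NP over the mean of zones. Without the 3 dpc8 libraries numbered 3 (a setting added once the values were known) 2 members passed between zones 1 and 2. Among the plotted fold changes of dpc8 against NP over the mean of zones, none of them past the threshold, 3 changed sign. Without the dpc8 libraries numbered 3, Gstm4 went from 0.63 to -0.0078 and Gstp1 from 0.30 to -0.0921, and Gstt1 went from -0.0152 to 0.0091 with array weights and from -0.1649 to 0.1307 over the fits without 1 library. The other fold changes of members named in the text kept their sign under the alternatives run. For genes outside the members, the sign under the alternatives was not checked. The cause of the changed counts was not tested. With 3 libraries a group and no read counts, a member that did not pass may still differ.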

Other observations

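Further transferases are listed in the table. Gstm5 lay between 5.90 and 17.6 FPKM and Gsto1 between 163 and 602 FPKM over the 27 libraries. Gstt4 was listed at 0 in every library. Group means lay between 1690.2 and 5337 FPKM for the microsomal Mgst1 and between 266 and 432 FPKM for Gstz1, an enzyme of tyrosine breakdown.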
